A study of Mus musculus with 12 samples.

Results

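Apoe, C1qa, C1qb, C1qc, Ms4a7 and Mrc1, known marker genes of tumour-associated macrophages, were followed across the 4 treatment groups of Colon26 tumours. They were taken by gene symbol from the count tables, 6 rows of 19921, and all 6 passed the filter on low counts that left 5443 genes for testing. They were selected on their fold changes in the comparisons below, with no record of which comparison weighed most, so those fold changes are given as a description with their standard errors and without a p-value. Colon26 is a colon carcinoma line of BALB/c mice. All 12 mice were wild-type BALB/c and received 200000 Colon26 cells under the skin of the right flank, and each tumour was taken on day 10. The control group (Ct) is labelled control, with no vehicle or isotype antibody named. The minP1 group received 0.08 µg of minP1 into the peritoneum on day 9. The peptide derives from HMGN1, a protein that binds nucleosomes, and is given to stimulate immune cells. The anti-PD-L1 group (PDL1) received 200 µg of antibody clone 10F.9G2 into the peritoneum on days 4 and 8. The combination group (minP1_PDL1) is taken to have received both, from its sample titles, because its treatment field names only the antibody. Each group held 3 mice, 1 library per mouse. One transplanted line at a subcutaneous site, sampled 1 time, is the model. Before RNA was taken, a Percoll step was used against tumour cells and dead cells, so the libraries are of the cells left in a digested tumour and not of sorted macrophages.

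Apoe encodes apolipoprotein E, which carries cholesterol and other lipids out of cells and is taken up through receptors of the LDL receptor family. C1qa, C1qb and C1qc encode the A, B and C chains of C1q, which are present in equal numbers in the protein that starts the classical complement pathway and also marks dying cells for uptake. Macrophages are a main source of C1q in tissues. Ms4a7 encodes a membrane protein with a tetraspan fold found mainly in mature macrophages, and Mrc1 encodes the mannose receptor CD206, an endocytic scavenger of glycoproteins and collagen fragments. In tumours these genes are commonly used together to describe macrophages that clear lipid and debris. Other cells make some of them too: fibroblasts and some tumour cells make Apoe, dendritic cells can make C1q, and sinusoidal and lymphatic endothelium makes Mrc1.

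The C1q genes lie side by side on chromosome 4 of GRCm38, all on the minus strand: C1qb at 136880129 to 136886187, C1qc at 136889804 to 136893065 and C1qa at 136895917 to 136898803. Apoe is on chromosome 7 at 19696109 to 19699188 (minus strand), Ms4a7 on chromosome 19 at 11321039 to 11336146 (minus strand) and Mrc1 on chromosome 2 at 14229392 to 14332057 (plus strand). In GENCODE M21 none of the 6 is overlapped by another gene except Mrc1, which hosts the microRNA Mir511 on its own strand. The libraries read the 5′ ends of transcripts, so the sequence just before each start is shown for the 4 genes that were high in the combination and for C1qb, which was not. A RefSeq (GRCm38.p6) start-site window was at hand for 5 of the 6 genes. It was missing for C1qa, which overlapped control in the combination. Each line gives the bases before both the RefSeq and the GENCODE start, on the strand of the gene, with matches to GAGGAA (the core of sites for PU.1, the master transcription factor of the myeloid lineage) or to TGCTGA (a half-site for Maf proteins) in capitals, either strand counted.
Apoe, chr7:19699189-19699438: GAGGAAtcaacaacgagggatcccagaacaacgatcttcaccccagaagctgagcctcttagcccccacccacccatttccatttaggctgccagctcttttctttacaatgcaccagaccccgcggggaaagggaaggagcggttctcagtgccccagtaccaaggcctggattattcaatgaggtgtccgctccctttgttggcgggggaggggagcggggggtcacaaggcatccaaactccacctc
C1qc, chr4:136893066-136893164: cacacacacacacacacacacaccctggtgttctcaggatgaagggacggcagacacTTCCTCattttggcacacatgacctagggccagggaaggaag
C1qb, chr4:136886201-136886450: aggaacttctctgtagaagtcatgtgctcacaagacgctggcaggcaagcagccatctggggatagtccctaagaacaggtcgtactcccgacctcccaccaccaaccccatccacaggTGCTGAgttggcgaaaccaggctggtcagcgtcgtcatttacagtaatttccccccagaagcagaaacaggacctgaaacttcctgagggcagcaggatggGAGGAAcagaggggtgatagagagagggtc
Ms4a7, chr19:11336147-11336396: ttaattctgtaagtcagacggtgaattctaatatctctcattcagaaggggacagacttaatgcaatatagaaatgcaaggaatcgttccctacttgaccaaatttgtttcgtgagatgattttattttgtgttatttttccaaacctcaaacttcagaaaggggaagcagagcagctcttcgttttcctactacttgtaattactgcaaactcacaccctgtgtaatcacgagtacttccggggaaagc
Mrc1, chr2:14229164-14229391: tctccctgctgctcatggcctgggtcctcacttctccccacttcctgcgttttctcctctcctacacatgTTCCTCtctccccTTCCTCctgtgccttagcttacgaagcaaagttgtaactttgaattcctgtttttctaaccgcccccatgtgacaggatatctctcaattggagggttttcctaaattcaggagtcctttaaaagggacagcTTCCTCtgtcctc
In the 250 bases before the RefSeq start, GAGGAA occurred in Apoe, C1qb and C1qc with 1 match each and in Mrc1 with 3 matches, and not in Ms4a7. Of 32851 such windows of all genes 23.3% held it. TGCTGA occurred in C1qb only, and in 16.1% of all windows. Windows of these 5 genes held no match to the AP-1 letters TGANTCA (6.75% of all windows), the TATA letters TATAAA (12.4%), the interferon response element (2.98%) or the STAT letters TTCNNNGAA (7.02%).

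Total counts were 133917 to 473273 per library, a 3.53-fold range, and were lowest in the combination (133917 to 196109). Levels are CPM, the count of a gene relative to the counts in tested genes, scaled by trimmed mean of M-values (TMM). A value after ± is an SD over the 3 libraries of a group for a level and a standard error for a log2 fold change. The intervals on single libraries cover counting error only. The short RNA Bc1 and Lrrc17, which took nearly equal counts, together held 1.36% to 2.34% of control counts. Their share was 1.5% to 4.17% after minP1, 2.35% to 4.42% after anti-PD-L1 and 2.49% to 6.32% after both. The number of genes detected at equal depth was 10579 to 11611 in control and 9811 to 10448 in the combination. Combination replicate 1, the shallowest library, held the highest level of all 12 libraries for all 6 genes. Several defining macrophage markers were thinly covered: summed over the 12 libraries Csf1r had 35 counts, Cd68 12, Adgre1 76, Tyrobp 16, Trem2 22 and Cd163 21, against 1097 for Apoe and 1076 for C1qa. For these markers, Csf1r to Cd163 in the same order, control held 14, 4, 22, 9, 13 and 7 counts. The combination, at lower depth, held 7, 1, 23, 2, 1 and 4, too few to test.

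Apoe, the lipid carrier, was the gene of the 6 with the widest range over the 12 libraries. It stood at 126, 241 and 163 CPM in control replicates 1 to 3, at 158, 231 and 254 in minP1, and at 338, 204 and 220.4 in anti-PD-L1. In the combination it stood at 1759, 609 and 1405 CPM. All 3 combination libraries lay above all 9 others, and the groups on 1 treatment overlapped control. The group means were 177 ± 58.9, 214 ± 49.9, 254 ± 73.4 and 1257 ± 589 CPM (SD, n = 3), so Apoe moved from rank 902 of all genes in control to rank 103 in the combination. The log2 fold change against control was 0.29 ± 0.34 for minP1, 0.51 ± 0.34 for anti-PD-L1 and 2.83 ± 0.33 for the combination, a 7.12-fold difference. The combination was also 4.99-fold above anti-PD-L1 (2.32 ± 0.33) and 5.82-fold above minP1 (2.54 ± 0.33). Combination replicate 2, at 609 CPM (95% counting interval 496 to 739), lay below replicates 1 and 3, whose intervals (1527 to 2016 and 1236 to 1591) did not overlap its own. In bulk tumours a change in the number of cells that express a gene and a change in RNA per cell cannot be told apart, here and in all results that follow.

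**Figure D1:**
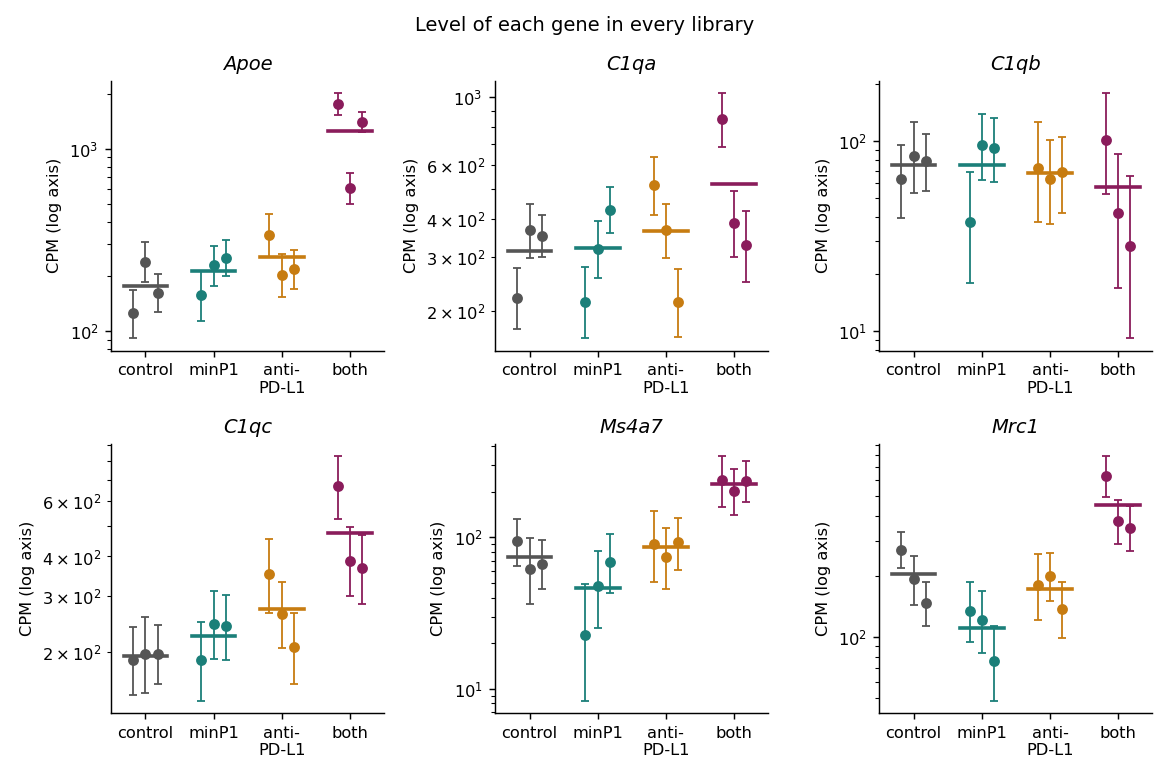
Level of each gene in CPM (log axis, TMM-scaled) in the 12 libraries, by group. Points are libraries in the order replicate 1 to 3 with 95% Poisson counting intervals, and bars are group means. Apoe, C1qc, Ms4a7 and Mrc1 lie above all control libraries in all 3 combination libraries, while C1qa and C1qb overlap control.

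Ms4a7, the macrophage tetraspan gene, stood at 94.4, 62.2 and 67.2 CPM in control and at 22.6, 47.6 and 69.2 in minP1. It stood at 90.7, 74.1 and 93 CPM in anti-PD-L1 and at 239, 203 and 237 in the combination. The combination libraries were close together and above all others, and 2 of 3 minP1 libraries lay below every control. The log2 fold change against control was -0.66 ± 0.34 for minP1, 0.19 ± 0.32 for anti-PD-L1 and 1.59 ± 0.31 for the combination, a 3.01-fold difference. These levels rest on 6 to 42 counts per library, and the lowest, minP1 replicate 1, on 6 counts (8.29 to 49.1 CPM). The minP1 difference was -1.08 ± 0.40 without minP1 replicate 3 and -0.35 ± 0.35 without minP1 replicate 1.

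Mrc1, the mannose receptor, stood at 272, 194 and 148 CPM in control and at 135, 121 and 75.7 in minP1, so all 3 minP1 libraries lay below every control. It stood at 181, 200.2 and 138 CPM in anti-PD-L1, within the control range apart from the lowest library, and at 632, 376 and 349.8 in the combination, above every other library. The log2 fold change against control was -0.88 ± 0.31 for minP1, -0.24 ± 0.30 for anti-PD-L1 and 1.13 ± 0.29 for the combination, a 2.19-fold difference. Against minP1 alone the combination was 4.04-fold higher (2.02 ± 0.31), and against anti-PD-L1 alone 2.59-fold (1.37 ± 0.30). Mrc1 and Ms4a7 were thus the genes of the 6 whose mean was lower with minP1 alone and higher when minP1 was added to the antibody. In both the minP1 mean was the lowest and the combination mean the highest. Between them anti-PD-L1 stood above control for Ms4a7 and below it for Mrc1, and those 2 groups overlapped.

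The C1q chains did not move together between groups. C1qc stood at 189, 197 and 197 CPM in control and at 188, 245 and 240.4 after minP1. It stood at 351, 263 and 207 CPM after anti-PD-L1 and at 666, 388 and 367 after both. All anti-PD-L1 and all combination libraries lay above every control, and the means rose in the order control, minP1, anti-PD-L1, combination (194 ± 4.83, 225 ± 31.7, 273 ± 72.5 and 474 ± 167 CPM). Neighbours in that order below the combination overlapped. C1qa, the A chain, stood at 220.4, 366 and 352 CPM in control and at 214, 319 and 428 after minP1. It stood at 514, 367 and 214 CPM after anti-PD-L1 and at 845, 388 and 327 after both. Its groups overlapped throughout, and its spread within a group was as wide as the differences between means. C1qb, the B chain, stood at 63, 84.1 and 78.4 CPM in control and at 37.6, 95.2 and 92.2 after minP1. It stood at 72.5, 63 and 68.9 CPM after anti-PD-L1 and at 102, 41.8 and 28.2 after both. Here 2 of 3 combination libraries lay below every control and 1 above, on 12, 7 and 5 counts. The log2 fold change of the combination against control was 1.26 ± 0.27 for C1qc, 0.71 ± 0.34 for C1qa and -0.48 ± 0.42 for C1qb. Without combination replicate 1 the value for C1qb was -1.03 ± 0.47, and at equal depth for all libraries it was 0.06 ± 0.74.

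A share within a library needs no scaling between libraries, so the make-up of the C1q transcripts was described as each chain's share of the summed counts of the 3 genes. A 5′ tag counts transcript ends whatever their length, so chains were compared without dividing by length. C1qb made up 13.3%, 13% and 12.5% of C1q counts in control, 8.55%, 14.4% and 12.1% in minP1, and 7.74%, 9.09% and 14.1% in anti-PD-L1. In the combination it made up 6.35%, 5.11% and 3.91%, below every other library. Pooled over a group these were 80 of 622 counts in control and 24 of 454 in the combination. The 95% Wilson intervals of single libraries were wide, 9.13% to 16.9% in the deepest control library and 3.67% to 10.8% in combination replicate 1, and those 2 overlapped. C1qc moved the other way, from 34% ± 5.23 of C1q counts in control to 46.5% ± 4.83 in the combination, whose 3 libraries lay above every control. C1qa went from 53.1% ± 5.56 to 48.4% ± 3.63, with overlap. Within groups the chains followed each other from mouse to mouse. After the group means were removed, the log2 levels over the 12 libraries correlated at 0.92 between C1qa and C1qc and at 0.78 between C1qb and each of the others. Over all 12 libraries without that step, C1qb and C1qc correlated at 0.01. These correlations share libraries and scaling and are given as descriptions.

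**Figure D2:**
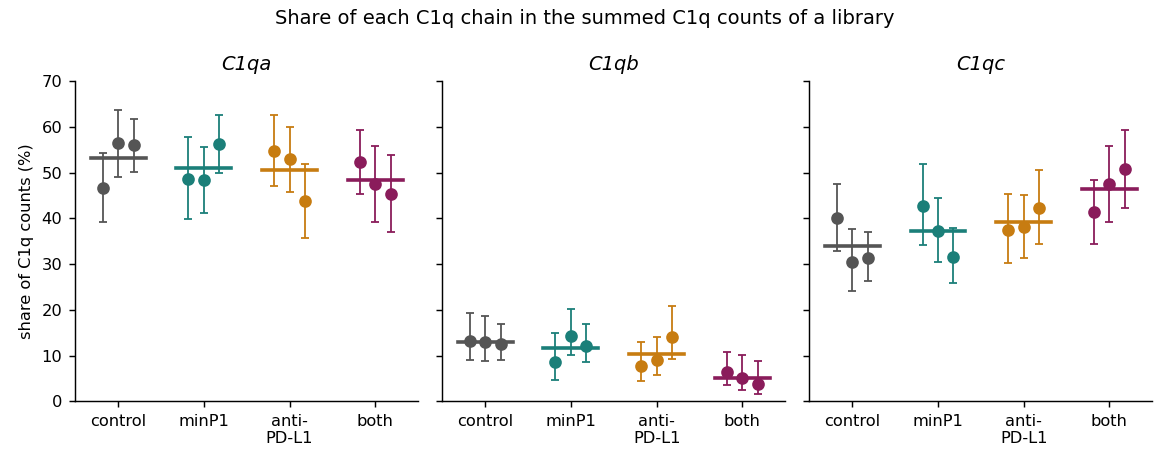
Share of each C1q chain (percent of the summed counts of C1qa, C1qb and C1qc) in the 12 libraries, by group, with 95% Wilson intervals and group means as bars. The C1qb share is 12.5% to 13.3% in control and 3.91% to 6.35% in the combination, and the C1qc share is higher in the combination.

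The series title speaks of synergy between minP1 and anti-PD-L1. For single genes the quantity described here is the combination's log2 change from control minus the sum of both single changes. Adding changes on the log2 scale is a choice. The quantity is about RNA levels and does not measure synergy of the treatments against the tumour. For Apoe the single changes added to 0.80 and the combination stood at 2.83, a difference of 2.03 ± 0.47. Added on the log scale the single changes would have given 309 CPM, against the 1257 measured. For Ms4a7 the single changes added to -0.47 and the combination stood at 1.59, a difference of 2.06 ± 0.47. For Mrc1 they added to -1.13 and the combination stood at 1.13, a difference of 2.26 ± 0.43. For Mrc1 that is 93.7 CPM expected from the sum and 452 measured. The differences of the C1q chains were 0.58 ± 0.38 for C1qc, 0.47 ± 0.48 for C1qa and -0.35 ± 0.57 for C1qb. None of the 6 and 0% of the 5443 tested genes passed edgeR's test for this difference at an adjusted p under 0.05. The genes were chosen with these values known, so their size is a description only.

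**Figure D3:**
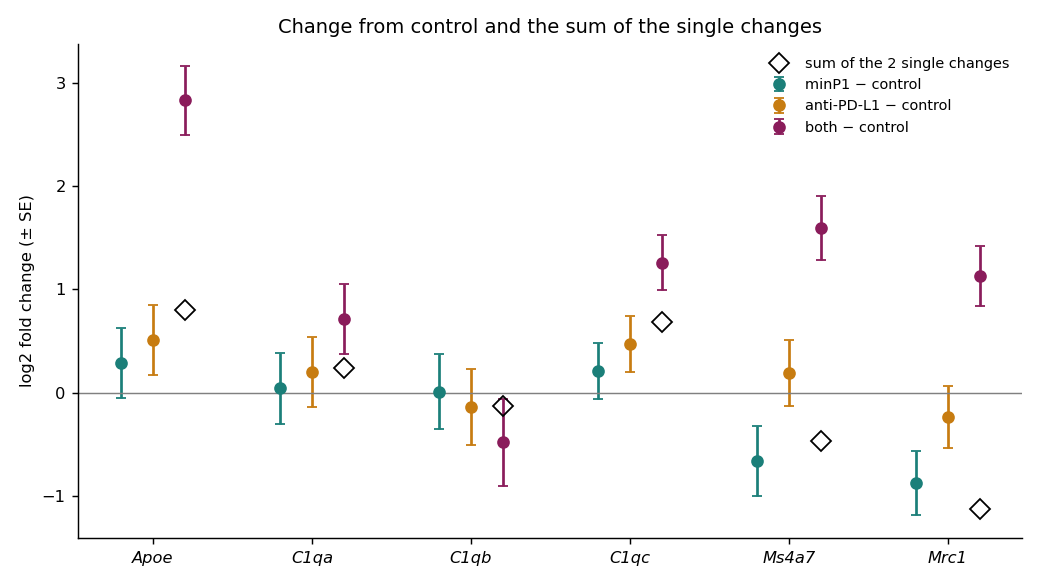
Log2 fold change against control with its standard error for each gene after minP1, anti-PD-L1 and both, with open diamonds at the sum of the 2 single changes. For Apoe, Ms4a7 and Mrc1 the combination lies about 2 log2 units above the diamond, and for C1qb it lies below it.

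The fit across all genes gives the background for these values. In the combination against control 4 of the 6 genes passed edgeR's quasi-likelihood test at an adjusted p under 0.05, all higher (Apoe, Ms4a7, C1qc and Mrc1), while 34.8% of all tested genes passed and 16.5% passed as higher. The same 4 genes did not overlap control, nor did 45.9% of all genes. Against anti-PD-L1 alone 3 of the 6 passed (Apoe, Ms4a7 and Mrc1), with 6.94% of all genes, 2.99% as higher, and 4 of the 6 did not overlap, with 27.3% of all genes. Against minP1 alone 4 of the 6 passed (those of the first comparison), with 20% of all genes, 9.19% as higher, and 4 did not overlap, with 37.5% of all genes. Mrc1 after minP1 and C1qc after anti-PD-L1 did not overlap control, nor did 12.4% and 23.5% of all genes in those comparisons. In minP1 against control none of the 6 and 0% of all genes passed, in anti-PD-L1 against control none of the 6 and 1.12% of all genes, and for the difference from the sum none of the 6 and 0% of all genes. edgeR had 383 genes at an unadjusted p under 0.05 for minP1 and 600 for the difference from the sum. DESeq2 called 1 and 20 genes there, the 20 among only 1011 genes that kept an adjusted p, and limma voom 0 in both. The median log2 fold change of the 6 genes in the combination was 1.2 and that of all genes -0.06. For the difference from the sum the medians were 1.31 and -0.09. Since these contrasts served to choose the genes, nothing is read from their counts.

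Some of these calls rested on single libraries or on covariates. In the combination against anti-PD-L1, Ms4a7 did not pass without anti-PD-L1 replicate 2, nor Mrc1 without anti-PD-L1 replicate 3 or combination replicate 1. C1qc did not pass against minP1 without combination replicate 1, and it passed against anti-PD-L1 without anti-PD-L1 replicate 1 (1.02 on the log2 scale). C1qa passed against control without combination replicate 3 (0.97) and stood at 0.26 without combination replicate 1. At equal depth Ms4a7 (1.18 ± 0.51) and Mrc1 (1.07 ± 0.38) did not pass against anti-PD-L1. With the Bc1 and Lrrc17 level as covariate the combination differed from control by 2.95 ± 0.37 for Apoe, 1.58 ± 0.40 for Ms4a7, 1.05 ± 0.33 for C1qc and 0.79 ± 0.35 for Mrc1, and Mrc1 did not pass. When the detected-gene number was the covariate, Apoe alone of the 6 passed (3.25 ± 0.48). Ms4a7 then stood at 1.38 ± 0.45, C1qc at 1.01 ± 0.39 and Mrc1 at 0.76 ± 0.41. The difference from the sum hardly moved with either covariate, at 2.01 and 1.97 for Apoe, 2.05 and 2.04 for Ms4a7 and 2.23 and 2.24 for Mrc1.

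Related gene lists were read against the background of the combination against control, where 34.8% of all tested genes passed and 16.5% passed as higher. Of 18 tested macrophage identity genes, from 36 listed, 4 rose and 2 fell, a share near that of all genes, with a median log2 fold change of 0.4 against -0.06 for all genes. The chemokine Ccl8 rose by 1.56 ± 0.37 (edgeR, adjusted p = 0.00275). With anti-PD-L1 alone Ccl8 stood at 1.41 ± 0.36 against control, just short of passing, and the combination was only 0.14 above anti-PD-L1. Lysozyme Lyz2, a general myeloid gene, fell by 1.36 (SE 0.36, adjusted p = 0.00558), from 128 ± 15.9 to 49.4 ± 19.8 CPM. The selenium carrier Selenop fell too (adjusted p = 0.0196), where control had 48 counts and the combination 3 (depth-adjusted ratio 0.145, 95% interval 0.0288 to 0.449 for counting error). In minP1 against control and in anti-PD-L1 against control 0 of the 18 passed (0% and 1.12% of all genes). In the combination against anti-PD-L1 1 rose (2.99% of all genes did), and against minP1 3 rose and 1 fell (20% of all genes passed, 9.19% as higher).

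The genes were also set against the macrophage content of the same library, taken as the summed counts of 10 general macrophage and myeloid genes (Csf1r, Cd68, Adgre1, Aif1, Tyrobp, Fcer1g, Cd14, Lyz2, Ctss and Fcgr1). Per 1000 such counts Apoe stood at 265 ± 45 in control and 371 ± 67.5 after minP1, and at 578 ± 324 after anti-PD-L1 and 2219 ± 634 after both. Mrc1 stood at 341 ± 205, 209 ± 104, 375 ± 123 and 854 ± 265, and Ms4a7 at 123 ± 66.6, 76.2 ± 23.2, 188 ± 62.6 and 431 ± 87.6. The log2 ratio of combination to control was 3.04 for Apoe, 1.91 for Ms4a7, 1.52 for C1qc, 1.43 for Mrc1, 0.93 for C1qa and -0.30 for C1qb. Lyz2 and Ctss gave 138 and 332 of the reference counts in control, 23 and 92 in the combination, and had log2 fold changes of -1.36 ± 0.36 and -0.64 ± 0.37. Without them the ratios were 2.38, 1.25, 0.86, 0.77, 0.27 and -0.96 in the same order. The C1qb ratio ran from -0.72 to 0.23 when single libraries were left out, so its direction depended on which libraries were kept.

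In the complement system 5 of 12 tested genes, from 43 listed, rose and 2 fell in the combination against control (34.8% of all genes passed, 16.5% as higher), with a median of 0.91. Those that rose included C1ra (1.63 ± 0.43, adjusted p = 0.00533, edgeR), a protease that binds C1q, and C4b (2.19 ± 0.47, adjusted p = 0.00101), a component further down the classical pathway. Calr, an endoplasmic reticulum chaperone that can act as a C1q receptor at the cell surface, rose from 575 ± 81.3 to 1796 ± 238 CPM (1.64 ± 0.25, adjusted p = 4.74e-05). C1qbp, a mitochondrial protein first isolated as a C1q binder, fell by 2.45 (SE 0.54, adjusted p = 0.00143), from 108 ± 5.94 to 18.9 ± 19.8 CPM. In anti-PD-L1 against control 1 of the 12 rose (1.12% of all genes passed), which was Calr (1.07 ± 0.25, edgeR, adjusted p = 0.0357). In the combination against minP1 3 rose and 2 fell (20% of all genes passed, 9.19% as higher), and none passed in the remaining comparisons. The terminal components and most regulators were too thinly covered to test, such as C2 with 11 counts over all libraries.

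Lipid handling genes gave 7 that rose and 2 that fell of 19 tested, from 42 listed, in the combination against control (34.8% of all genes passed, 16.5% as higher), with a median of 0.55. Fabp5, a fatty acid binding protein, went from 8.76 ± 2.13 to 112 ± 17.2 CPM (3.65 ± 0.47, with an adjusted p = 6.85e-06 by edgeR). Cd36, a scavenger receptor for oxidised lipoproteins and fatty acids, went from 18 ± 2.19 to 114 ± 15.6 CPM (2.63 ± 0.41, adjusted p = 4.87e-05), and Psap, the precursor of lysosomal lipid activators, rose by 1.26 ± 0.22 (adjusted p = 0.000172). The lipid droplet coat gene Plin3 fell by 1.78 (SE 0.43, adjusted p = 0.00281). Chosen after their values were seen, the cholesterol exporter Abca1 rose by 1.57 ± 0.47 (adjusted p = 0.0128), the lipase Lpl by 2.04 ± 0.54 (adjusted p = 0.00537) and Soat1, which esterifies cholesterol for storage, by 1.52 ± 0.41 (adjusted p = 0.00664). With minP1 and anti-PD-L1 alone Lpl already stood at 1.58 ± 0.52 and 1.41 ± 0.53. Soat1 stood at 0.26 and 1 there, and Abca1 at -0.27 and -0.07. None of these single changes passed. The sterol synthesis gene Sqle, chosen in the same way, fell by 1.4 (SE 0.37, adjusted p = 0.00569). In the combination against anti-PD-L1 3 rose (2.99% of all genes did), and against minP1 5 rose and 1 fell (20% of all genes passed, 9.19% as higher). Apoc2, an apolipoprotein gene near Apoe, had 9 counts over all libraries, and the adjacent Tomm40 had 9, 7, 6 and 1 in control, minP1, anti-PD-L1 and the combination.

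Scavenger and mannose-type receptors gave 4 that rose and 1 that fell of 12 tested, from 36 listed, with a median of 0.47, while 34.8% of all genes passed in the same comparison. Beside Cd36, the beta-glucan receptor Clec7a went from 53.7 ± 9.43 to 408 ± 212 CPM (2.87 ± 0.33, with an adjusted p = 2.08e-06 by edgeR), as did the galactose-type lectin Clec10a from 5.78 ± 4.96 to 105 ± 86.5 CPM (4.02 ± 0.75, adjusted p = 0.000315). The galectin Lgals3 fell by 1.36 (SE 0.34, adjusted p = 0.00363). Msr1, the class A scavenger receptor, chosen after its value was seen, stood at -0.31 ± 0.29 and did not pass. Adding minP1 to the antibody raised 3 of the 12 (2.99% of all genes), and adding the antibody to minP1 raised 4 (9.19% of all genes). In the Ms4a family, whose genes cluster around Ms4a7 on chromosome 19, 1 of 5 tested genes rose and 1 fell in the combination against control, too few to set against the 34.8% of all genes that passed. Ms4a4b, a T cell member, rose by 2.37 ± 0.62 (adjusted p = 0.00486), and Ms4a6c, a myeloid member, fell by 1.32 (SE 0.37, adjusted p = 0.00813). For the difference from the sum both stood at -0.03, against 2.06 ± 0.47 for Ms4a7. No standard error is given at -0.03, since the one used here is derived from the test statistic and is unreliable near 0. Of 11 tested alternative activation genes 6 rose and 3 fell (34.8% of all genes passed, 16.5% as higher), with a median of 0.9. Those that rose included Mmp12 (4.26 ± 0.44, edgeR, adjusted p = 9.03e-07), Il1rn (1.74 ± 0.45, adjusted p = 0.00444) and Arg1 (1.11 ± 0.30, adjusted p = 0.00615). With anti-PD-L1 alone Mmp12 already stood at 2.78 ± 0.46 against control and passed (edgeR, adjusted p = 0.00496). Arg1 stood at 0.93 ± 0.29 there and Il1rn at -0.07, and neither passed. The 3 that fell, chosen after their values were seen, were Vegfa (-1.73 ± 0.54, edgeR, adjusted p = 0.016), Socs3 (-2.36 ± 0.75, adjusted p = 0.0174) and Stat6 (-1.8 ± 0.67, adjusted p = 0.0382).

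**Figure D4:**
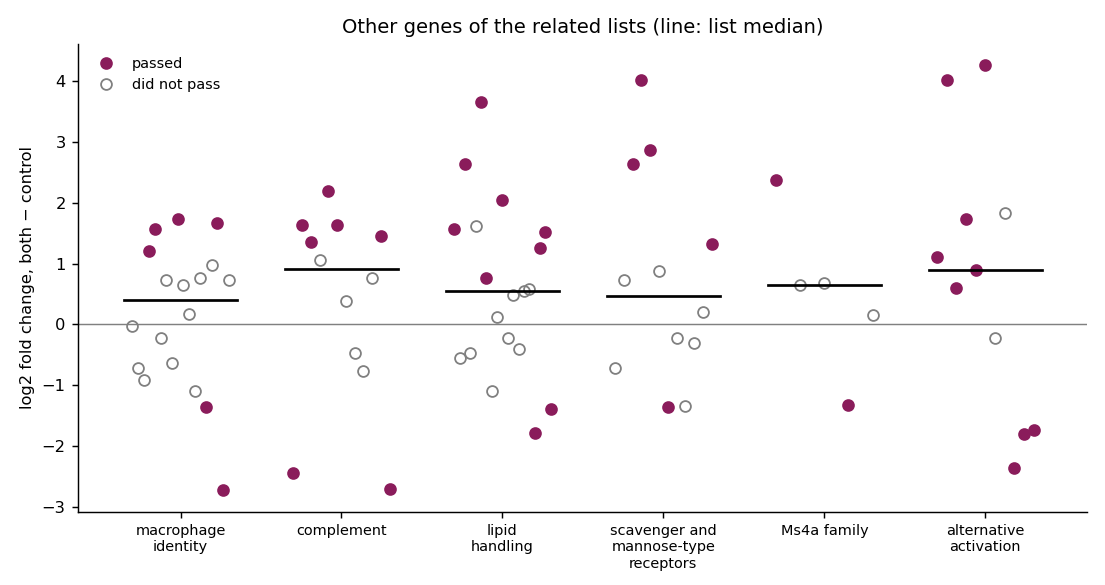
Log2 fold change of the combination against control for the tested genes of 6 related lists without the 6 genes themselves. Filled points passed edgeR's test at an adjusted p under 0.05, open points did not, and lines are list medians, all between 0.4 and 0.91.

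Markers of other cells that can make these transcripts were summed in each library. Tested genes given as higher or lower passed in the combination against control, where 34.8% of all genes passed and 16.5% passed as higher. Over 13 fibroblast markers the summed level was 1394 to 1881 CPM in control and 942 to 1451 in the combination, with 1 of 6 tested genes higher and 3 lower and none of the 13 at 0. Over 14 markers of blood and lymphatic endothelium it was 109.7 to 183 CPM in control and 164 to 282 in the combination, with 1 of 3 tested genes higher (Stab1, also a macrophage scavenger receptor). Kdr, Tek, Eng, Vwf, Lyve1 and Flt4 were at 0 counts in the combination, and Vwf and Flt4 also in the deeper control group. Over 13 dendritic cell markers it was 775 to 885 CPM in control and 1574 to 2296 in the combination, mostly from Bst2, with 3 of 4 tested genes higher. Zbtb46, Cd209a and Ccr7 were at 0 in the combination, and Batf3 in control. Over 14 neutrophil markers it was 388 to 441 CPM in control and 662 to 743 in the combination, with 4 of 6 tested genes higher and 1 lower, and Ly6g, Retnlg, Elane and Mpo at 0 there. In control Ly6g, Mpo and G0s2 were at 0. Over 10 epithelial markers it was 25.6 to 37.2 CPM in control and 25.6 to 89.5 in the combination. Over 17 T and NK cell markers it was 80.4 to 175 CPM in control and 263 to 333 in the combination. Of 2 tested genes 1 was higher (Thy1, also a fibroblast marker). Ncr1 and Nkg7 were at 0 in the combination, and Cd4 in control. Over 6 B and plasma cell markers it was 17.2 to 18.3 and 41.8 to 51.2 CPM, on only 5 to 8 and 6 to 8 counts per library. Pax5, the 1 tested gene, was higher and gave 39.4 of the mean of 46 CPM in the combination. Jchain and Mzb1 were at 0 there, and Cd79b and Jchain in control. The part of these cells in the levels of the 6 genes was not tested.

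The genes whose log2 levels followed each of the 6 most closely over the 12 libraries, among 3422 others with a mean of at least 50 CPM, were named by Pearson correlation. For Apoe they were Ddx5 (0.96), Cybb (0.95) and Zc3h11a (0.95). For C1qc they were Ptx3 (0.97), Hcls1 (0.96) and Gab1 (0.96). For C1qa they were A630089N07Rik (0.86), Kcnq1ot1 (0.85) and Agtrap (0.85), and for C1qb Srp54c (0.86), Ccni (0.82) and Snrpd1 (0.81). For Ms4a7 they were Sept9 (0.95), Mpp1 (0.94) and Ddx42 (0.94), and for Mrc1 Thumpd1 (0.91), Fam49b (0.90) and Wdhd1 (0.90). Among the 6 genes themselves the highest correlation was between Apoe and C1qc (0.91) and the lowest between C1qb and Mrc1 (-0.24). With the group means removed, Apoe and Mrc1 correlated at 0.03 and Ms4a7 and Mrc1 at -0.25. These values share libraries, depth and scaling and carry no test.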

How the data were processed

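RNA of 12 Colon26 tumours, 3 mice in each of 4 groups, was measured by serial analysis of gene expression from 5′ ends on an Ion S5, per the labels' protocols. The authors deposited 1 table per library with raw whole-number counts for 19921 gene symbols. Bowtie2 2.2.5, R 3.6.1, DESeq2 and the build mm10 are named with no role, per the submitters' processing notes. How reads were counted, on which strand, and what was done with reads of more than 1 gene is not stated in the labels. No molecular identifiers are recorded, so amplified copies cannot be told from separate transcripts. The intervals cover counting error only, treat every count as independent and may be too narrow.

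Groups came from the sample titles. The 6 genes and all lists were chosen with earlier results of these data known. Genes were filtered with filterByExpr, which left 5443, scaled with TMM, and tested with edgeR 4.0.16 (R 4.3.3) by the quasi-likelihood test in 1 fit of all 12 libraries. P-values were Benjamini-Hochberg adjusted over 5443 genes within a comparison (6 were made), and 0.05 was the limit for a call. The prior count was 0.125 for log2 fold changes and 2 for the log2 CPM of correlations. The standard error of an edgeR fold change was its absolute log2 value over the square root of the test's F statistic. It is unreliable near a change of 0. The biological coefficient of variation was 22.5%. Exact permutation of 3 against 3 libraries cannot go below p = 0.1 and was not used. On simulated counts for the combination against control the fit recovered 95.5% of 200 genes changed 4-fold (5039 genes) and 24.5% of those changed 2-fold (5070 genes). Alternatives used DESeq2 1.42.0, limma 3.58.1 voom, other scalings, filters, covariates and left-out libraries. Named genes of a list were the up to 4 tested genes with the smallest p in the combination against control, and the 3 genes most correlated with each of the 6. Neighbours and loci came from GENCODE M21 (GRCm38, the same assembly as mm10). Exact Poisson intervals were used for single levels and Wilson intervals for shares, both at 95%. The values of some listed genes are not reported here.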

Additional observations from a re-analysis of the deposited data

Results flagged for a closer look

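In 2 of the genes followed here, every minP1 library lay below the control mean. In the same genes every combination library lay above the anti-PD-L1 mean. This rule takes no account of the spread around a group mean. The share of all 5443 genes that meet it was not counted, so nothing is read from the number of genes that do. Ms4a7 stood at 22.6 to 69.2 CPM in minP1 against a control mean of 74.6, and at 203 to 239 CPM in the combination against an anti-PD-L1 mean of 85.9. Its difference from the sum of the single treatments was 2.06 ± 0.47 on the log2 scale. For Ms4a7 the minP1 group overlapped control, since minP1 replicate 3, at 69.2 CPM, lay within the control range of 62.2 to 94.4 CPM. Mrc1 stood at 75.7 to 135 CPM in minP1 against a control mean of 204, and at 349.8 to 632 CPM in the combination against an anti-PD-L1 mean of 173. Its difference from the sum was 2.26 ± 0.43. Neither difference passed edgeR's test over all 5443 genes.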

How the results depend on the processing

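Of the 822 recomputed fold changes of the 6 genes, 808 moved by less than the spread between replicates, and none that passed changed direction. That spread is the SD of log2 CPM within groups and not the error of a fold change. Many of the 822 could hardly move, because the library left out belonged to a group outside the comparison. Apoe in minP1 against control, for instance, stayed at 0.29 to 0.3 without any 1 anti-PD-L1 library. Apoe passed in 23 of 23 alternatives in each comparison of the combination with another group, at 2.59 to 3.25 against control. With the detected-gene covariate 1 of the 6 passed against control (4 as reported), and at equal depth 1 passed against anti-PD-L1 (3 as reported). Leaving out single libraries gave 4 to 5, 2 to 4 and 3 to 4 of the 6 against control, anti-PD-L1 and minP1. For the difference from the sum, where 0 of the 6 passed, 2 passed with no filter and 2 with DESeq2, which gave an adjusted p for 4 of the 6. With the Bc1 and Lrrc17 covariate 3 passed, and 1 with the detected-gene covariate. Without both minP1 replicate 2 and anti-PD-L1 replicate 1 there were 3, and without single libraries 0 to 2. Without Lyz2 and Ctss in the reference the Apoe ratio was 2.38 and the C1qc ratio 0.86.

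Over all genes, minP1 against control gave 0 calls, against 51 with no filter, 1 with DESeq2, 1 with the Bc1 and Lrrc17 covariate and 0 to 5 without single libraries. Anti-PD-L1 against control gave 61, against 167 with no filter, 33 at equal depth, 35 and 1 with the 2 covariates, 126 with only the 2 groups, 24 without both libraries and 1 to 169 without single ones. The combination against control gave 1892, against 801 at equal depth, 849 and 427 with the covariates and 1433 to 2054 without single libraries. Against anti-PD-L1 it gave 378, against 123 at equal depth, 613 without both libraries and 94 to 499 without single ones. Against minP1 it gave 1088, against 473 at equal depth, 636 and 282 with the covariates and 600 to 1346 without single libraries. The difference from the sum gave 0, against 37 with no filter, 20 with DESeq2 (of 1011 genes with an adjusted p), 35 and 4 with the covariates, 65 without both libraries and 0 to 8 without single ones. At equal depth 2912 genes were tested. For the combination against anti-PD-L1 the covariates gave 456 and 332 calls. Neither covariate overlapped between control and the combination. Bc1 and Lrrc17 held 1.36% to 2.34% and 2.49% to 6.32% of counts, and detected genes were 10579 to 11611 and 9811 to 10448. A covariate effect and a treatment effect cannot be told apart there. The cause of these shifts was not tested.

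With the replicate number as a block, anti-PD-L1 against control gave 173 calls, and the difference from the sum gave 16 with 3 of the 6 genes among them. After group means were removed, same-numbered libraries correlated at -0.14 to 0.21 (median 0.1, 9 of 18 pairs above 0.1) and differently numbered ones at -0.32 to 0.32 (median -0.04, 7 of 36 above 0.1), and 7 of 12 libraries correlated best with their own number. This is a hint of pairing from the data, but the labels give the numbers no meaning and not every same-numbered pair passed 0.1, which was the rule for reading them as pairs. C1qb, at 24 counts in the combination, is the gene that depth limits most.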
